A study of Arabidopsis thaliana with 4 samples.

Results

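The chloroplast of Arabidopsis thaliana keeps a small genome of its own, and the levels of its protein-coding transcripts were compared here between wild-type plants and the lwd1 lwd2 double mutant. A probe set was a member when the platform annotation paired it with one gene that lies on the plastid chromosome of RefSeq's TAIR10.1 gene table, matched by gene ID. There were 69 such probe sets among the 22810 on the array, each for a different gene, beside 13356 different genes that have a probe set of their own. All 69 carried the same symbol in both tables. The gene table holds 78 different plastid protein-coding symbols, so 9 had no member. A further 8 probe sets list several plastid entries and were left out by the rule.

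LWD1 and its close relative LWD2 are clock proteins with WD repeats. Their own transcripts were not analysed here. RNA of the above-ground parts was measured on 2 arrays of wild type and 2 of the double mutant, described as biological replicates. Plants of both genotypes had grown for 31 days with equal day and night lengths of 12 h, and harvest fell in the window from 5 to 9 h after dawn. The mutant alleles, the accession and the number of plants in a sample are not given in the sources used here, and the samples include no single mutant. Because whole shoots were taken, fewer cells of a type and less RNA per cell cannot be told apart.

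Plastid genes encode core subunits of photosystem I (psa), photosystem II (psb), the cytochrome b6f complex (pet), the ATP synthase (atp), the NAD(P)H dehydrogenase-like complex (ndh), the large subunit of Rubisco, ribosomal proteins (rps and rpl) and a bacterial-type RNA polymerase (rpo). The remaining subunits of these complexes are nuclear-encoded and imported, so each complex draws on both genomes. In land plants the plastid-encoded polymerase transcribes mainly photosynthesis genes with the help of nuclear sigma factors, while a phage-type, nuclear-encoded polymerase transcribes rpoB and accD, among others. Many plastid genes are transcribed together as clusters, and the joint transcripts are then cut, spliced, edited and stabilised by nuclear-encoded proteins.

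No plastid-encoded gene passed the test between lwd1 lwd2 and wild type. The photosystem II genes had the most negative group median. Of the 15 psb genes, 14 had a negative difference, and the group's median log2 difference was −0.35, which is 78.3% of the wild-type level. The median was −0.22 for the 6 atp genes, −0.21 for the 6 pet genes, −0.19 for the 5 psa genes, −0.13 for the 9 tested ndh genes and −0.06 for the 4 rpo genes. The 14 tested rps and rpl genes had a median of 0.09, with 8 above 0 and 6 below. That sign turned to −0.038 when arrays were centred on their median and to −0.028 without mutant replicate 1, and the psb median was −0.14, with 9 of 15 genes below 0, when arrays were centred on the plastid-encoded median. Over all members tested the median was −0.14, beside 0.05 over the 13647 tested probe sets of the array. Differences below 0 were found in 46 members (68.7%), against 44.9% of all tested probe sets. These medians are descriptions over genes and carry no test.

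The negative values were unevenly spread over the replicate numbers, which the labels do not describe as pairs. Taking mutant minus wild type within a number, the median over the members was 0.074 for replicate 1, with 30 of 67 below 0, and −0.24 for replicate 2, with 52 of 67 below 0. The same sign was found in both for 37 of 67 members, beside 9025 of the 13647 tested probe sets. Over all tested probe sets the medians were 0.042 for replicate 1 and 0.035 for replicate 2, with 6209 and 6345 below 0. For psb the medians were −0.058 and −0.58, and for rps and rpl 0.30 and 0.097.

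Differences are mutant minus wild type in log2(signal + 16), and for dim genes the added constant makes a fold too small. They were tested with limma in one fit over all probe sets that passed the filter on dim signals, with Benjamini-Hochberg adjustment over all of them. The filter left out the dimmest 40% of probe sets, those under a signal of about 91.5. Of the members, 67 of 69 passed it. The genes left out were ndhF, a subunit of the NDH complex with signals of 41.8 and 15.1 on the wild-type arrays against 18.7 and 23.5 on the mutant arrays, and rps14, a ribosomal protein gene with signals of 108 and 74.9 on the wild-type arrays against 81.6 and 59.9 on the mutant arrays. Both were dim in both genotypes and overlapped between them.

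None of the 67 tested members reached an adjusted p of 0.05, where 5.57% of all tested probe sets did (limma), 2.73% higher and 2.84% lower in the mutant. At an unadjusted p under 0.05 there were 7 members, 6 lower and 1 higher in the mutant. That is 10.4% of the members, against 19.9% of all tested probe sets in either direction. Lower members at this level made up 8.96% against 8.79% of all probe sets, and higher ones 1.49% against 11.1%. The genotypes did not overlap in 21 members, where this held for 51.5% of all tested probe sets. In 14 members both mutant arrays were below both wild-type arrays (20.9%, against 22.6% of all tested probe sets). In 7 members both mutant arrays were above (10.4%, against 28.9%). By these counts of single genes, the share of members lower in the mutant was near that of the array as a whole, and the share higher was smaller. The 95% interval of the difference included 0 for 60 of the 67 members and excluded a 2-fold change either way for 58. These intervals rest on 2 arrays per genotype and on limma's spread, which is drawn in part from all tested probe sets. The share of all tested probe sets that excluded a 2-fold change was not computed.

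**Figure D1:**
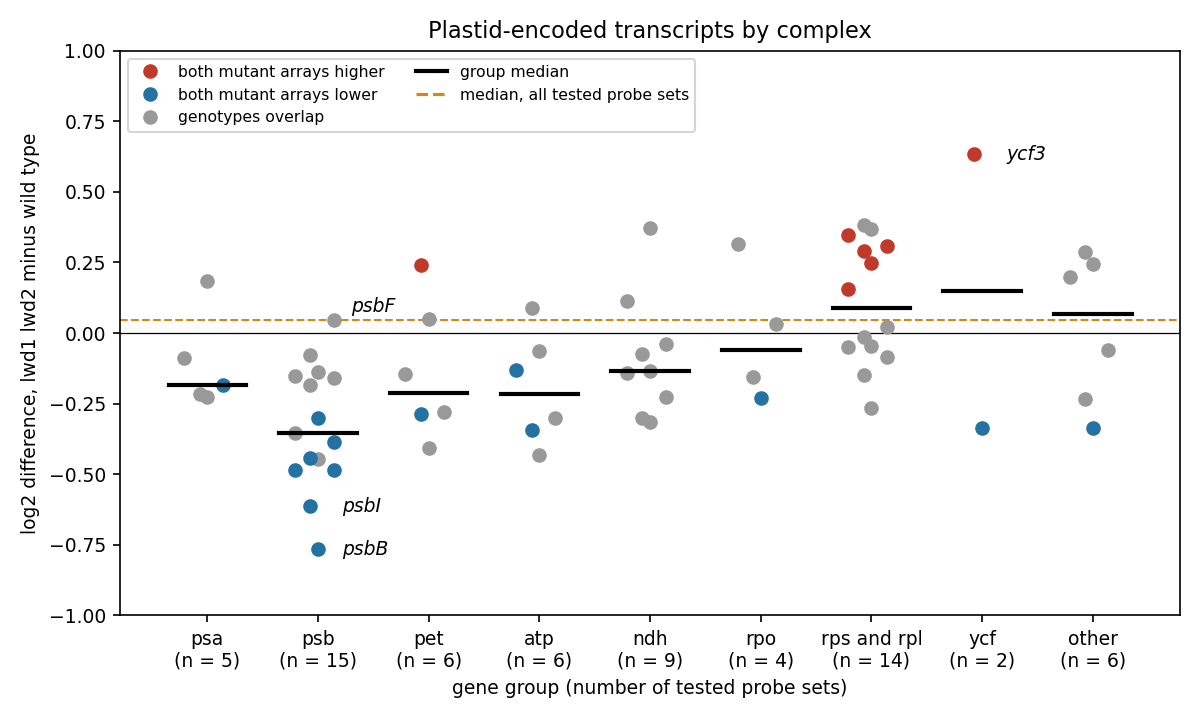
Log2 difference between lwd1 lwd2 and wild type (vertical axis) for each of the 67 tested plastid-encoded genes, by gene group (horizontal axis). Points are coloured by whether the arrays of the 2 genotypes overlap, black bars are group medians, and the dashed line is the median of 0.05 over all tested probe sets. The psb group has its median at −0.35 and 14 of 15 points below 0, while the rps and rpl group has its median at 0.09.

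The deposited arrays have the same trimmed mean signal of 500.05, so a change in total RNA cannot be seen. Array medians of the signal ran from 162 to 181. The summed signal of the 69 members was 2.61% and 2.99% of the array total for wild type against 2.69% and 2.42% for the mutant, and the genotypes overlapped. Of the 67 tested members, 44 lay in the brightest 10% of tested probe sets. Those had a median difference of −0.06 over 1365 probe sets and of −0.15 over the 44 members. Of leaf markers, 1 of 6 is named here, the Rubisco activase gene RCA, with signals of 27927 and 29534 on the wild-type arrays against 20801 and 25786 on the mutant arrays. Of senescence markers, 1 of 3 is named here, SAG29, which fell from 230.0 and 320.4 to 62.7 and 46.4 (adjusted p = 0.00224, limma). Both mutant signals lay below the cut of the filter on dim signals, which used the mean over all arrays. SAG29 was therefore tested only because of its wild-type signals. Its part in the plastid values was not tested. None of the 5 floral organ identity genes and 1 of 2 root markers (PYK10, 1104 and 1810.2 on the wild-type arrays against 934 and 1406 on the mutant arrays) is named here.

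Among photosystem II genes the largest differences belonged to psbB and psbI. psbB encodes CP47, an inner antenna protein that binds chlorophyll next to the reaction centre. Its signal was 3049.7 and 6745 on the wild-type arrays against 2346 and 3019 on the mutant arrays. Both mutant arrays were lower than both wild-type arrays, but wild-type replicate 2 stood far above the other 3 arrays. The log2 difference was −0.77 ± 0.31 (SE, n = 2 per genotype, limma adjusted p = 0.192), with a 95% interval of −1.44 to −0.09. psbI, a small subunit of the reaction centre core, had signals of 2477 and 2943 on the wild-type arrays against 1415 and 2186 on the mutant arrays. Its arrays did not overlap either, and its difference was −0.61 ± 0.22 (adjusted p = 0.148), the lowest p of the psb group.

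psbA encodes D1, the reaction centre protein that is damaged by light and replaced continuously. Its mean signal was 11531 ± 2179 for wild type against 8439 ± 1004 for the mutant (SD, n = 2). Single arrays gave 13072 and 9989.8 on the wild-type arrays against 9149 and 7728 on the mutant arrays. They did not overlap, with a difference of −0.44 ± 0.19 (adjusted p = 0.215). psbJ, a small subunit near the plastoquinone exchange site, was alike on both wild-type arrays at 9462 and 9452 and lower on both mutant arrays at 8257 and 5532, with a difference of −0.48. psbM, a small subunit at the interface of the photosystem II dimer, had a signal of 18569.5 and 30189 in wild type and of 17832 and 16019 in the mutant. Its difference of −0.49 ± 0.22 had an adjusted p of 0.249. These genes, psbB and psbI are the 5 of 15 psb genes at an unadjusted p under 0.05 (limma), and ycf3 and atpE are the other members at that level. Of all tested probe sets, 8.79% were lower at that level. Genes that share the same arrays are not independent replicates, so the count carries no test.

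psbH, a phosphoprotein of the core, and psbT, a small subunit of the dimer interface, were also lower on both mutant arrays. psbH stood at 8836 and 12038 on the wild-type arrays against 7924 and 7842 on the mutant arrays, and psbT at 1104 and 1469 on the wild-type arrays against 1084 and 980.3 on the mutant arrays. Their differences were −0.39 and −0.30. In psbT the nearest arrays of the genotypes were almost level, at 1104 for wild type and 1084 for the mutant. In psbM they were close too, at 18569.5 and 17832. In all, 7 of the 15 psb genes had both mutant arrays below both wild-type arrays, against 22.6% of all tested probe sets, and none had both above, against 28.9%. Of 2 GAPDH control pairs on the array, 1 separated the genotypes. The log2 signal of its 3′ probe set minus that of its 5′ probe set was −0.23 and −0.19 for wild type against −0.05 and 0.07 for the mutant. The other GAPDH pair overlapped, at 0.51 and 0.51 against 0.71 and 0.24, as did the actin pair and both ubiquitin pairs. Its part in the psb values was not tested.

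The other 8 psb genes overlapped between genotypes. psbZ, which takes part in the link to the antenna, stood at 5909 and 8196 on the wild-type arrays against 6078 and 4281 on the mutant arrays, with a difference of −0.45. psbK, a small core subunit, had 2366 and 3617 on the wild-type arrays against 1637 and 3192 on the mutant arrays and a difference of −0.35. psbE and psbF encode the subunits of cytochrome b559. psbE differed by −0.14 ± 0.17 and psbF by 0.05 ± 0.19, and psbF was the 1 psb gene with a positive difference. psbL, a small subunit transcribed with them, had −0.08, and psbN, an assembly factor, −0.16.

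psbD and psbC, whose transcripts overlap, gave the widest gaps between replicates of all members. psbD encodes D2, the partner of D1, and psbC encodes CP43, the second inner antenna protein. The signal of psbC was 7849 and 4802 on the wild-type arrays against 12716 and 2290.0 on the mutant arrays. That of psbD was 3367 and 2261 on the wild-type arrays against 5497 and 1114 on the mutant arrays. In both genes mutant replicate 1 was the highest of the 4 arrays and mutant replicate 2 the lowest, so the genotypes overlapped on both sides. The ratio of the mutant replicates was 5.55 for psbC and 4.93 for psbD. Of all 13647 tested probe sets, 5 had a larger log2 gap between the mutant replicates than psbC and 9 a larger one than psbD. The differences of −0.18 ± 0.58 for psbC and −0.15 ± 0.54 for psbD therefore have the widest intervals of the members, −1.46 to 1.09 and −1.34 to 1.03.

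**Figure D2:**
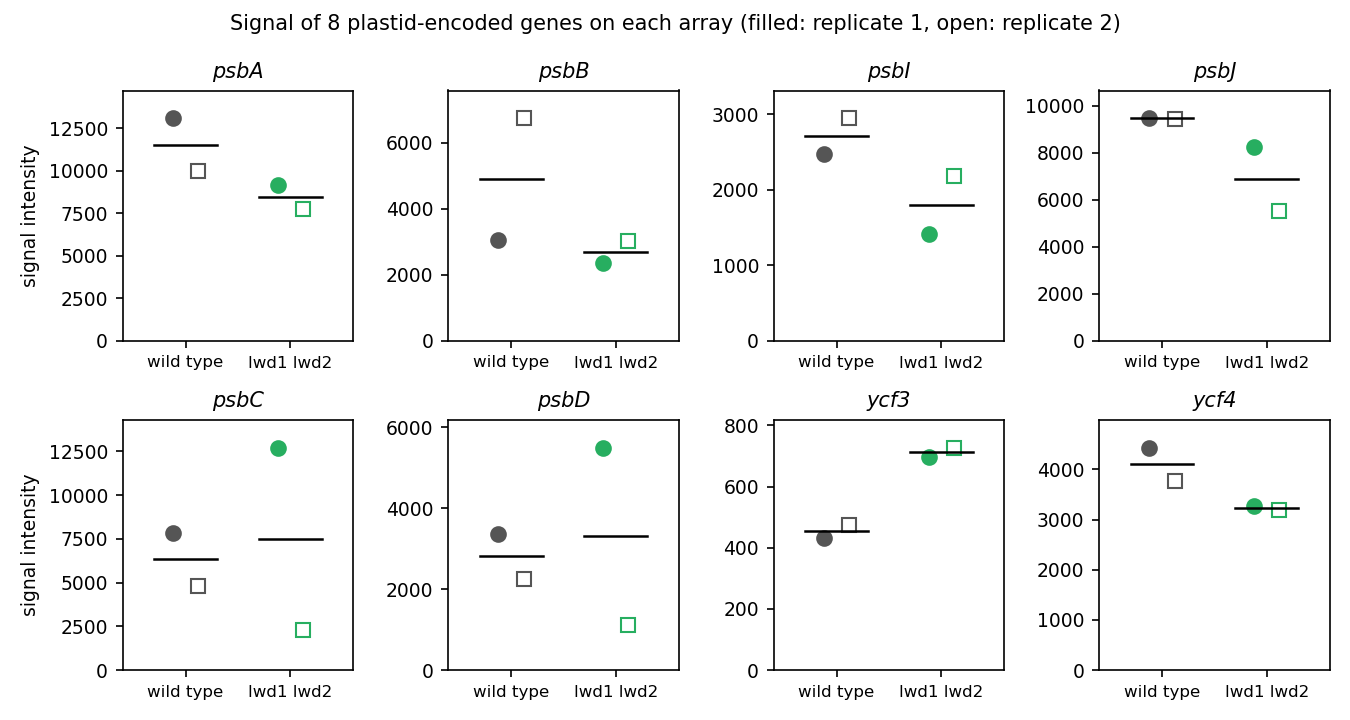
Signal intensity (vertical axes, from 0) of 8 plastid-encoded genes on each array, by genotype, with filled circles for replicate 1, open squares for replicate 2 and black bars for the mean of 2 arrays. In psbA, psbB, psbI, psbJ and ycf4 both mutant arrays are lower than both wild-type arrays, in ycf3 both are higher, and in psbC and psbD the mutant replicates lie on either side of wild type.

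The psa genes of photosystem I had small differences. psaA and psaB encode the pair of large proteins that form its reaction centre. psaB stood at 17010.0 and 20894 on the wild-type arrays against 16782 and 16369 on the mutant arrays. The genotypes did not overlap, though their nearest arrays, at 17010.0 and 16782, were almost level. The difference of psaB was −0.19 ± 0.17 (limma adjusted p = 0.584). psaA, which is transcribed with it, stood at 5527 and 6283 on the wild-type arrays against 5925 and 5182 on the mutant arrays and overlapped, with a difference of −0.09 ± 0.17. psaC carries the iron-sulfur clusters that pass electrons to ferredoxin. Its signals of 1965 and 3176 on the wild-type arrays against 2537 and 3175 on the mutant arrays gave a difference of 0.18 ± 0.23, the 1 positive value of the group. The small subunits psaI and psaJ differed by −0.22 ± 0.25 and −0.23 ± 0.18, with signals of 6524 and 5928 on the wild-type arrays against 7265 and 3936 on the mutant arrays for psaI and 17345 and 13383 on the wild-type arrays against 12314 and 13731 on the mutant arrays for psaJ. Both overlapped between genotypes.

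The assembly factors of photosystem I, ycf3 and ycf4, lay on opposite sides. ycf3 had the highest difference of all members and the lowest p. Its signal was 432 and 475 on the wild-type arrays against 695 and 727 on the mutant arrays, and the gap between genotypes was wider than either replicate gap. The log2 difference was 0.63 ± 0.19, or 1.55-fold, with an interval of 0.21 to 1.05 and an adjusted p of 0.0841 (limma), which misses the threshold. ycf4 stood at 4435 and 3769.5 on the wild-type arrays against 3265 and 3199.7 on the mutant arrays, lower on both mutant arrays, with a difference of −0.34 ± 0.17 (adjusted p = 0.303). The 2 genes lie in separate clusters.

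The cytochrome b6f group held differences of both signs, and the 2 genes above 0, petD and petN, were dim. With a filter that left out the dimmest 60% of probe sets, petD and petN among them, the group median was −0.28. petB encodes cytochrome b6, and its signal of 22815 and 24803 on the wild-type arrays against 18745 and 20256 on the mutant arrays was lower on both mutant arrays, with a difference of −0.29 ± 0.16 (adjusted p = 0.347). petA, which encodes cytochrome f, gave 9535 and 6871 on the wild-type arrays against 8487 and 5236 on the mutant arrays and a difference of −0.28 ± 0.24. The genotypes overlapped, and without mutant replicate 2 the difference was 0.068. petA was higher in replicate 1 than in replicate 2 in both genotypes. petD encodes subunit IV with signals of 132 and 146 on the wild-type arrays against 166 and 169 on the mutant arrays, higher on both mutant arrays, with a difference of 0.24 ± 0.24. The small subunits petG, petL and petN differed by −0.14, −0.41 and 0.05. petL varied most between replicates, at 2584 and 1712 on the wild-type arrays against 2341 and 1069.7 on the mutant arrays.

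Of the ATP synthase genes, 5 of 6 had a negative difference. atpB and atpE encode the beta and epsilon subunits of the catalytic head and are transcribed together. atpE stood at 27458 and 28235 on the wild-type arrays against 22402 and 21517 on the mutant arrays, lower on both mutant arrays, with a difference of −0.34 ± 0.15 (adjusted p = 0.248). atpB stood at 29619 and 31706 on the wild-type arrays against 26948 and 29011 on the mutant arrays, also without overlap, with a difference of −0.13 ± 0.16. atpA, the alpha subunit, and atpF, subunit b of the membrane stalk, differed by −0.30 ± 0.20 and −0.43 ± 0.23. In both genes wild-type replicate 2 was the highest array, with 10688 and 15305 in wild type for atpA and 4437 and 7362 for atpF. The mutant values were 9852 and 10915 for atpA and 3914 and 4579.7 for atpF. atpH, the ring subunit, had 3275 and 5755 on the wild-type arrays against 3339 and 5178 on the mutant arrays, and atpI, a stator subunit of the membrane part, had 156 and 234 on the wild-type arrays against 244 and 171 on the mutant arrays. Their differences of −0.06 and 0.09 were small beside replicate gaps of up to 0.81 for atpH and 0.54 for atpI.

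No ndh gene separated the genotypes, and differences ran from −0.32 to 0.37. The complex they form passes electrons from ferredoxin back to plastoquinone around photosystem I. At the lower end, ndhK stood at 1031 and 1563 on the wild-type arrays against 1104 and 936 on the mutant arrays and ndhJ at 2019.9 and 2386 on the wild-type arrays against 2135 and 1483 on the mutant arrays, and both are subunits of the peripheral arm. At the upper end, ndhH, another subunit of that arm, stood at 431 and 805 on the wild-type arrays against 686 and 859.7 on the mutant arrays, with a difference of 0.37 ± 0.27. ndhI, ndhD, ndhC and ndhA differed by −0.04, −0.13, −0.07 and 0.11. ndhE and ndhG of the membrane arm differed by −0.23 and −0.14.

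The rpo genes of the plastid polymerase gave mixed values. rpoA, the alpha subunit, lies in a ribosomal protein cluster and stood at 5036 and 5438 on the wild-type arrays against 4306 and 4629 on the mutant arrays, lower on both mutant arrays, with a difference of −0.23 ± 0.16 (adjusted p = 0.483). The catalytic subunits overlapped between genotypes. rpoB stood at 139.8 and 189 on the wild-type arrays against 177 and 157 on the mutant arrays, with a difference of 0.03 ± 0.25. rpoC1 and rpoC2 differed by −0.15 ± 0.21 and 0.32 ± 0.29, and rpoC2 ran from 717 to 1488 with both extremes in replicate 1. accD, a subunit of the acetyl-CoA carboxylase of fatty acid synthesis and also read by the nuclear-encoded polymerase, stood at 2153 and 2679.7 on the wild-type arrays against 2479 and 2137 on the mutant arrays, with a difference of −0.06 ± 0.19.

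Among the plastid gene groups, ribosomal protein genes had the most members above 0, with 8 of the 14 tested. That share is near the one over the whole array, where 7516 of 13647 tested probe sets were above 0. Both mutant arrays were higher in 5 of the 14 tested (35.7%, against 28.9% of all tested probe sets), and in none were both lower. The 5 were rpl22, rps15, rps16, rps18 and rps3, and in rps18 the nearest arrays of the genotypes were almost level at 2727 and 3490.1 on the wild-type arrays against 3494 and 3849 on the mutant arrays. rpl22, of the large subunit, stood at 4683 and 6319 on the wild-type arrays against 6462 and 7436 on the mutant arrays, with a difference of 0.35 ± 0.19 (adjusted p = 0.344), the lowest p of the group. rps16 and rps15, of the small subunit, stood at 577 and 589 on the wild-type arrays against 771 and 668 on the mutant arrays for rps16 and 847 and 779 on the wild-type arrays against 1170.2 and 871 on the mutant arrays for rps15. Their differences were 0.29 and 0.31. rps18 and rps3 differed by 0.25 and 0.16.

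The highest differences of the group came with wide replicate gaps. rpl14 stood at 710.2 and 509 on the wild-type arrays against 1120.0 and 554 on the mutant arrays, and rpl16 at 2723 and 1291 on the wild-type arrays against 4048 and 1450.5 on the mutant arrays. Both genes were higher in replicate 1 of each genotype, and their differences of 0.38 ± 0.30 and 0.37 ± 0.43 had adjusted p-values of 0.523 and 0.686. At the other end rpl20, at 862 and 524 on the wild-type arrays against 805 and 385 on the mutant arrays, had the lowest value of the group, −0.26 ± 0.33. The remaining 6 tested ribosomal genes (rps2, rps4, rps19, rpl32, rpl33 and rpl36) had differences between −0.15 and 0.02.

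The members outside these groups overlapped between genotypes except ccsA. rbcL encodes the large subunit of Rubisco, and its signals of 2333 and 3780.0 on the wild-type arrays against 3544 and 3705 on the mutant arrays gave a difference of 0.29 ± 0.22 (adjusted p = 0.52). Wild-type replicate 1 was the low array, and the other 3 lay between 3544 and 3780. ccsA, which attaches haem to c-type cytochromes, stood at 15006 and 17034 on the wild-type arrays against 11708 and 13666 on the mutant arrays, lower on both mutant arrays, with a difference of −0.34 ± 0.17. clpP encodes the catalytic subunit of a stromal protease, and matK a maturase of group II introns. They had their low array in wild-type replicate 1 too, with 7506 and 15454 on the wild-type arrays against 12321 and 13238 on the mutant arrays for clpP and 5948 and 11498 on the wild-type arrays against 8531 and 10554 on the mutant arrays for matK. Their differences were 0.25 and 0.20. cemA, an envelope protein, had −0.24.

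Seen per array, the group medians overlapped between genotypes in most groups. Each gene's log2 value was set against its wild-type mean and the median was taken over the group. For psb this gave −0.18 and 0.18 for wild type against −0.20 and −0.52 for the mutant, so mutant replicate 1 was close to wild-type replicate 1. For atp it gave −0.26 and 0.26 against −0.34 and −0.19, and over all tested members −0.09 and 0.09 against −0.04 and −0.18. For rps and rpl the wild-type arrays were at −0.00055 and 0.00055, and the mutant arrays at 0.25 and −0.028. Leaving out wild-type replicate 2 moved the psb median to −0.20, and leaving out mutant replicate 2 moved it to −0.20 too. Without wild-type replicate 1 it was −0.48, and without mutant replicate 1 it was −0.52.

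**Figure D3:**
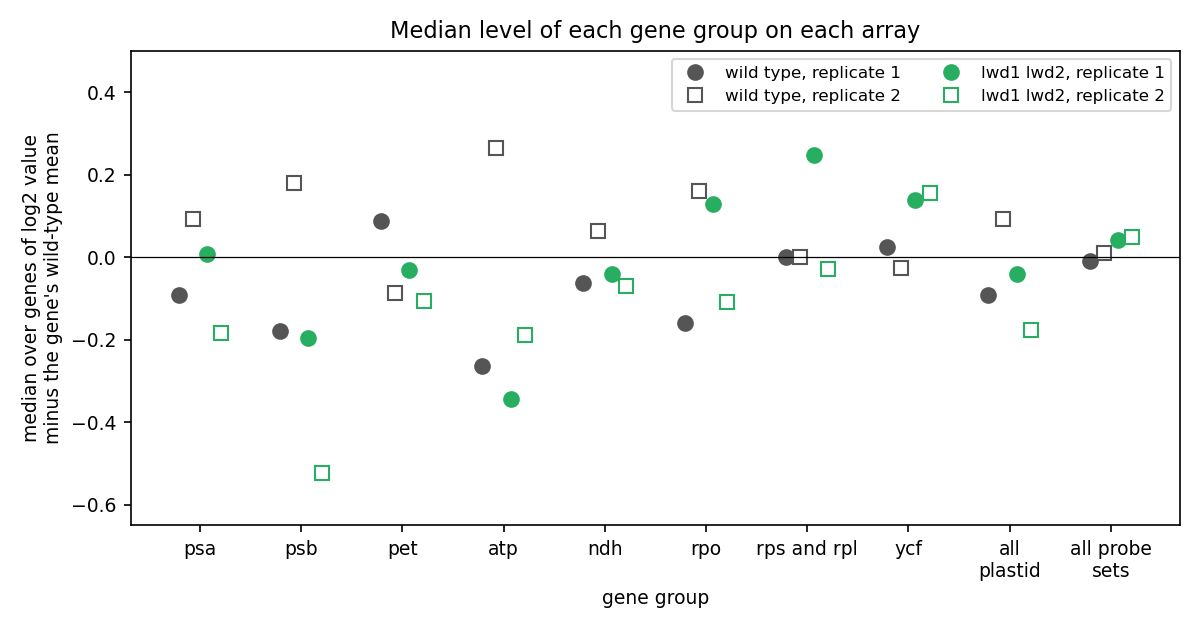
Median over the tested genes of a group of the log2 value minus the gene's wild-type mean (vertical axis) on each of the 4 arrays, for 8 plastid gene groups, all plastid-encoded genes and all tested probe sets (horizontal axis). The psb medians of the mutant arrays are −0.20 and −0.52, below the wild-type arrays at −0.18 and 0.18 but close to the lower of them. The medians of all probe sets lie between −0.01 and 0.05.

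With 1 array left out, single members passed the threshold, and which ones passed depended on the array. Without wild-type replicate 1 these were psbB (−1.34, adjusted p = 8.02e-04), psbM (−0.84, adjusted p = 0.0428) and atpF (−0.80, adjusted p = 0.0348) in limma. That is 3 of 67, where 8.02% of all probe sets passed. Without mutant replicate 1 psbC (−1.42, adjusted p = 9.98e-04), psbD (−1.30), psbJ (−0.77) and petL (−0.97) passed, 4 of 67 against 5.02%. Without mutant replicate 2 psbC and psbD passed in the other direction, with differences of 1.05 and 0.99, and rpl16 (higher, adjusted p = 0.0283) and psbI (−0.92) passed as well, 4 of 67 against 5.98%. Without wild-type replicate 2 none of 67 passed, where 4.11% of all probe sets did.

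Differences varied within clusters, though the gaps between genes of one cluster were not tested. The 4 genes of the psaI-ycf4-cemA-petA cluster had differences within 0.12 of each other, from −0.34 to −0.22. The 3 genes of the ndhC-ndhK-ndhJ cluster ran from −0.32 to −0.07. In the psbB-psbT-psbH-petB-petD cluster values ran from −0.77 at psbB to 0.24 at petD. The 4 genes before petD had both mutant arrays lower, and petD had both higher. psbN, which lies between psbT and psbH on the opposite strand, differed by −0.16 and overlapped. In the psbE-psbF-psbL-psbJ cluster the last gene stood apart, with −0.48 beside −0.14, 0.05 and −0.08. The 7 tested genes of the cluster from rpoA to rpl23 ran from −0.23 to 0.38. Across the 64 pairs of neighbouring tested members the median gap between their differences was 0.23, beside 0.26 across all 2211 pairs. The same sign was found in 41 of the 64. With 46 of the 67 members below 0, many pairs share a sign whatever their order, and the share over all pairs was not computed.

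**Figure D4:**
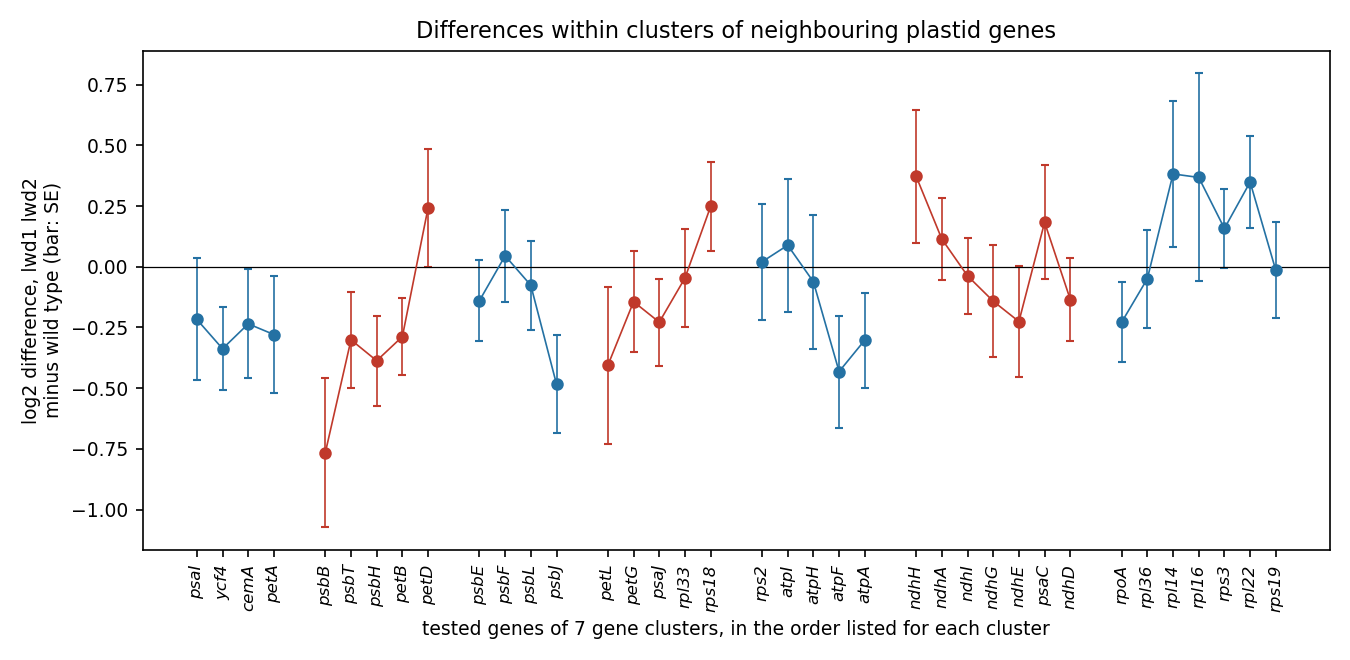
Log2 difference between lwd1 lwd2 and wild type (vertical axis, bars are limma's SE) for the tested genes of 7 clusters of neighbouring plastid genes (horizontal axis). Lines join genes of one cluster. The psaI to petA cluster is level between −0.34 and −0.22, while the psbB to petD cluster runs from −0.77 to 0.24. The last value is that of petD, a dim gene.

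The gaps between replicates of the members were correlated between the genotypes. The log2 gap between replicate 1 and replicate 2 in wild type correlated with that in the mutant at r = 0.58 across the 67 members, and at r = 0.55 without psbC and psbD. Across all 13647 tested probe sets it was 0.09. These correlations are across genes that share 4 arrays, and genes are not independent replicates. The gap had the same sign in both genotypes for 43 members (64.2%, against 52.8% of all tested probe sets). Replicate 1 was above replicate 2 in 21 members in wild type and in 37 in the mutant. The median size of the wild-type gap was 0.39 over members and 0.22 over all probe sets. In the mutant it was 0.24 over members and 0.21 over all probe sets.

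Genes higher in replicate 1 of both genotypes included psbC (gaps of 0.71 and 2.46 in wild type and mutant), rpl16 (1.07 and 1.47), rpl20 (0.70 and 1.04) and petL (0.59 and 1.12). Genes higher in replicate 2 of both included psbB (−1.14 and −0.36), psbK (−0.61 and −0.96), atpH (−0.81 and −0.63) and ndhH (−0.88 and −0.32). The anther gene A9 was also higher in replicate 1 of both genotypes, at 156 and 33.1 on the wild-type arrays against 300.0 and 40.9 on the mutant arrays, and so was the anther regulator AMS, too dim to be tested, at 46.3 and 1.12 on the wild-type arrays against 59.7 and 11.9 on the mutant arrays. These are 2 of the 4 anther and pollen markers, the others not being named here, and their part in the plastid gaps was not tested.

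**Figure D5:**
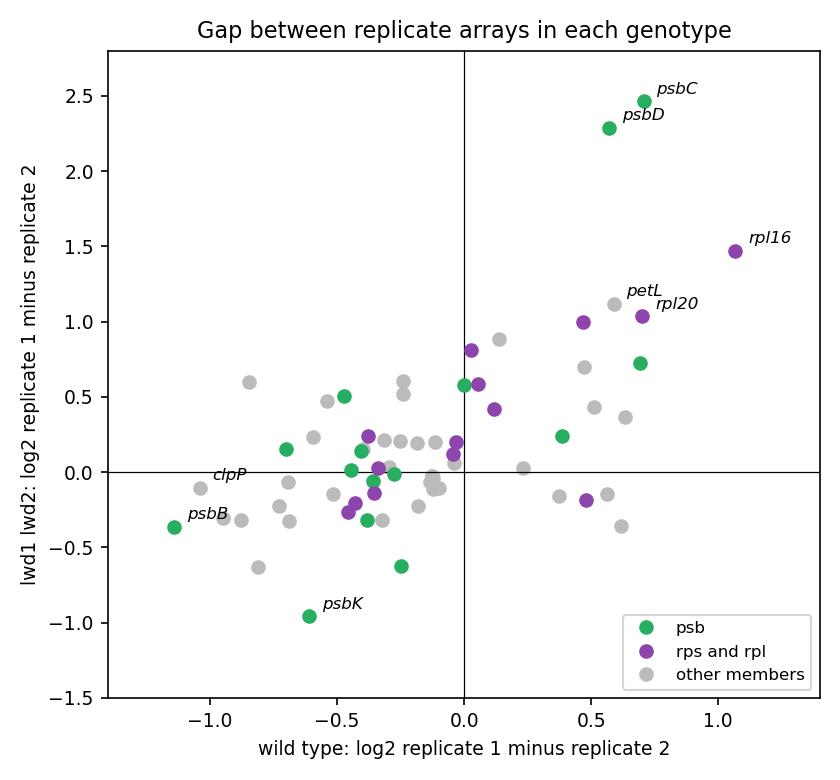
Log2 gap between replicate 1 and replicate 2 in wild type (horizontal axis) and in lwd1 lwd2 (vertical axis) for the 67 tested plastid-encoded genes, with psb genes in green, rps and rpl genes in purple and other members in grey. Points run from lower left to upper right (r = 0.58 across genes), with psbC and psbD highest at mutant gaps of 2.46 and 2.29.

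Few nuclear partners of these complexes are named here. Of 130 listed genes for subunits, plastid transcription and plastid RNA processing, 24 are named and all 24 were tested. None was higher and 1 was lower at the threshold (1 of 24, against 5.57% of all tested probe sets in either direction). The 1 was NDHS, the subunit of the NDH complex that binds ferredoxin, which fell from 5865 and 5143 to 3627 and 2613, a difference of −0.83 ± 0.20 (adjusted p = 0.0345, limma). NDHL, another nuclear subunit, stood at 3157 and 5073 on the wild-type arrays against 2669 and 2883 on the mutant arrays, with a difference of −0.53 ± 0.22 (adjusted p = 0.216), while the plastid-encoded ndh genes had a median of −0.13.

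The nuclear photosystem genes named were PSAE-1, PSAN, PSBW and PSBY, with differences of −0.27, −0.11, −0.24 and −0.07. The gamma subunit ATPC1 had −0.20 and its second copy ATPC2 0.16, and PETM of cytochrome b6f had 0.07. Of 5 nuclear genes for plastid ribosomal proteins, RPL5 differed most, with signals of 5391 and 7129 on the wild-type arrays against 8529 and 9667 on the mutant arrays and a difference of 0.55 ± 0.19 (adjusted p = 0.121). The median of these 5 was 0.11, with 2 below 0. RPOTMP, a phage-type RNA polymerase of mitochondria and plastids, was the 1 named gene of 21 for plastid transcription and stood at 81.9 and 91.8 on the wild-type arrays against 139 and 146 on the mutant arrays, with a difference of 0.62 ± 0.27 (adjusted p = 0.223). RPOTMP was dim, and its wild-type signals lay around the cut of the filter on dim signals. It passed on the mean over all arrays, which the mutant signals raised. The sigma factors were not analysed here. Among 7 genes of plastid RNA processing the median was 0.32, with 2 below 0. CRR22, an RNA editing factor, had the highest value at 0.52 ± 0.26 (adjusted p = 0.306). CAF1, a splicing factor of group II introns, stood at 455 and 473 on the wild-type arrays against 679.8 and 621 on the mutant arrays, with a difference of 0.47 ± 0.19 (adjusted p = 0.194).

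Genes of the other organelle genome had a median near that of the whole array. Of 23 probe sets with a mitochondrial gene symbol, 19 were tested. Their median difference was 0.09, beside 0.05 over all tested probe sets, and 7 were below 0 (36.8%, against 44.9%). Per array their medians overlapped between genotypes, at −0.13 and 0.13 for wild type against −0.008 and 0.11 for the mutant. None of the 19 passed the threshold, and 1 had an unadjusted p under 0.05 in limma (5.26%, against 19.9% of all tested probe sets). Several of these probe sets read the same gene. The difference between the organelles was not tested.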

How the data were processed

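RNA labelled with biotin by in vitro transcription was hybridised to Affymetrix arrays, per the labels' protocols. The deposited table gives linear signal intensity values per probe set. Their trimmed means (2% removed at each end) are equal on all arrays, so the values had been scaled before deposit. The software, the scaling step, the detection calls and how cDNA synthesis was primed are not given in the sources used here. Most plastid mRNAs lack a long poly(A) tail.

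Values were used as deposited, as log2(intensity + 16), since array medians differed by 0.15. The 64 control probe sets and the dimmest 40% by mean over all arrays were left out. limma 3.58.1 (R 4.3.3, lmFit and eBayes with an intensity trend, two-sided) was fitted to genotype only, with 2 residual degrees of freedom, and its p-values adjusted over 13647 probe sets. The procedure was tested on simulated data, with probe sets drawn independently and changes larger than the difference of any member here. That test does not cover changes as small as those of the members. The number of arrays limits the precision.

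Genes were grouped by the first letters of their symbol. The rule for named genes took members past the threshold, the highest and lowest of each group, all of a group with at most 6 members, rbcL, accD, clpP, matK, psbA and psbD, and the 5 highest and 5 lowest of all, with cluster partners named beside them. From each nuclear list it took up to 2 genes past the threshold, or else the 1 with the largest difference. Other psb, ndh, ribosomal and nuclear genes and the marker genes were named after their values were seen. Alternatives were other offsets, filters, scalings, variance settings, a replicate block and leaving out each array. The lists of nuclear partners and markers were written from general knowledge. Members and lists were chosen with earlier results of these data known.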

Additional observations from a re-analysis of the deposited data

How the results depend on the processing

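No plastid-encoded probe set passed the threshold under any alternative that kept all 4 arrays. In all, 14 fits were tried besides the one reported. Further alternatives changed only which probe sets entered the group medians. In the fits that kept all 4 arrays, the lowest adjusted p of a member ran from 0.0728 to 0.151 (limma). Leaving out 1 array gave 0 to 4 calls, and without mutant replicate 2 the differences of psbC and psbD turned to 1.05 and 0.99, against −1.42 and −1.30 without mutant replicate 1. Those fits judge the lone array by the spread of the other genotype. With 1 array left out the median ran from −0.18 to −0.04 over all members, −0.52 to −0.20 for psb, −0.24 to −0.031 for pet, −0.10 to −0.0121 for ndh, −0.19 to 0.0079 for psa, −0.41 to −0.055 for atp, −0.22 to 0.13 for rpo and −0.028 to 0.25 for rps and rpl. Centring each array on its median moved the median to −0.27 over all members, −0.34 for pet, −0.26 for ndh, −0.038 for rps and rpl and 0.020 for ycf. Centring on the plastid-encoded median moved it to 0.072 over all members, 0.0264 for psa, −0.14 for psb, −0.0052 for atp, 0.000385 for pet, 0.077 for ndh, 0.15 for rpo, 0.30 for rps and rpl and 0.36 for ycf, and left 25 members below 0 instead of 46. Both shifts follow from how the scaling was made. The median over all tested probe sets moved from 0.05 to −0.08 with the former and 0.26 with the latter, and the calls, 372 higher and 388 lower as reported, became 257 and 572 or 599 and 171. Adding the probe sets with several plastid entries, an alternative chosen after seeing the data, moved the ycf median to 0.60 and the rps and rpl median to −0.015, and without the filter the latter was 0.020. With a filter that left out the dimmest 60% of probe sets, the median was −0.28 for pet, −0.30 for atp, −0.15 for rpo and −0.35 for psb. Quantile normalization left 45 members below 0 but moved the median to −0.067 over all members, −0.079 for atp, −0.065 for psa and −0.14 for pet. Over all alternatives 42 of the 67 members changed sign at least once, 36 of them when 1 array was left out. Over all probe sets 760 passed, and 258 without the filter on dim signals; the cause was not tested. Leaving out 1 array gave 561 to 1095. With the replicate number as a replicate block 676 passed, and no member did (lowest adjusted p = 0.0822, psbB). The labels do not say that a number pairs the samples.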

Other observations

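A comparison within each array is not moved by a scaling that adds one constant to all log2 values of that array, though quantile normalization can move it. It was chosen after the values were seen and carries no test. The psb median minus the rps and rpl median, each relative to the wild-type mean of its genes, was −0.18 and 0.18 on the wild-type arrays against −0.44 and −0.50 on the mutant arrays. Both mutant arrays were below both wild-type arrays. For psa minus rps and rpl the values were −0.09 and 0.09 against −0.24 and −0.16, again without overlap. For pet, atp, ndh and rpo the genotypes overlapped, with mean differences of −0.18, −0.38, −0.16 and −0.10. Of the genes compared, 12 of 15 psb, 5 of 5 psa and 8 of 14 rps and rpl genes lay in the brightest 10% of tested probe sets, and the part of brightness in these values was not tested.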
